A study of Mus musculus with 13 samples.

Results

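The regions described here are places in the genome of the newborn mouse retina where Ikzf4 was found in both postnatal day 0 (P0) libraries and was absent from the list of embryonic day 14 (E14). Members were chosen by the deposited peak calls: a peak of P0 replicate 1 that overlaps a P0 replicate 2 peak by at least 1 bp and overlaps no E14 peak. There were 1145 such regions among the 2735 peaks of P0 replicate 1, and the 3 Ikzf4 lists held 9316 peaks in all. Absence here means absence from the E14 list of calls, which is not the same as absence of the protein.

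Ikzf4 encodes Eos, a member of the Ikaros family of zinc finger transcription factors. These proteins bind DNA through zinc fingers near one end and pair with each other through fingers at the other end, and they often act by recruiting chromatin-remodelling corepressors. In the mouse retina a single pool of progenitors makes different cells in sequence, with ganglion cells, horizontal cells and cones born mostly before birth and most rods, bipolar cells and Müller glia born around and after it. Ikaros family factors are known as part of the timing of this sequence.

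Binding was mapped by CUT&RUN, in which a nuclease tethered to an antibody cuts out the DNA around the protein, and the released fragments are sequenced. Whole retinas of the CD1 strain were used, with 1500000 cells per stage, in 1 Ikzf4 library at E14 and 2 at P0. A further CUT&RUN library mapped Ikzf1 (Ikaros), from explants of P0 retina electroporated with a plasmid carrying Ikzf1 and GFP under the CAG promoter, with 50000 sorted GFP-positive cells and a sample name that gives 9 hours after P0. The IgG library and the 8 RNA libraries of transfected cells were not used here. Since whole retinas were used, fewer cells that carry a bound site and less binding per cell cannot be told apart. The single E14 library means that no difference between stages has a replicate error, and the labels do not say whether the P0 replicates came from separate animals.

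All positions are on mouse build mm9. No genome or gene annotation of that build was used here, so the regions are given by position alone, with no gene, exon or promoter assigned and no sequence printed.

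Most of these regions were moderate peaks, and few were among the strongest of the P0 retina. Of the 2122 P0 replicate 1 peaks found in both P0 libraries, the 1145 regions made up 54.0% (95% exact binomial interval 51.8 to 56.1%). The other 977 had an E14 peak and are called kept peaks below. Over the whole P0 replicate 1 list, 77.6% of the peaks were in P0 replicate 2 and 61.4% had no E14 peak, whether reproducible or not. These shares describe how the regions were chosen, and the interval covers counting error only.

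The fold enrichment of a peak is the authors' own value, the signal at the peak's highest point (its summit) over the local background that the peak caller expected there. Its median over the regions was 5.34 in P0 replicate 1, with quartiles of 4.45 and 6.68 and a range of 1.30 to 32.4. In P0 replicate 2 the same regions had a median of 6.26, with quartiles of 4.86 and 8.21 and a range of 1.34 to 33.2. The kept peaks stood higher in both libraries, with medians of 6.36 and 7.73. P0 replicate 1 peaks without any partner in P0 replicate 2 or at E14 stood lower, with a median of 4.45 over 535 peaks.

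The share of reproducible peaks that were absent from the E14 list fell steadily with the P0 fold above the lowest band. For this the lower of the fold enrichments in the P0 libraries was taken for each peak. Among peaks with a lower fold from 3 to 4, 164 of 237 (69.2%, interval 62.9 to 75.0%) had no E14 peak. From 6 to 8 it was 228 of 446 (51.1%, 46.4 to 55.9%), and from 10 to 15 it was 31 of 121 (25.6%, 18.1 to 34.4%). At 15 and over only 4 of 62 (6.45%, 1.79 to 15.7%) were absent from the E14 list. These 4 include a piece of a broad chromosome 18 domain, described below, that held an E14 peak elsewhere within it. Of the 100 reproducible peaks with the highest lower fold, 12 belonged to the regions described here, and of the highest 50 it was 3. Below a fold of 3 the share was 39 of 72 (54.2%, 42.0 to 66.0%).

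**Figure D1:**
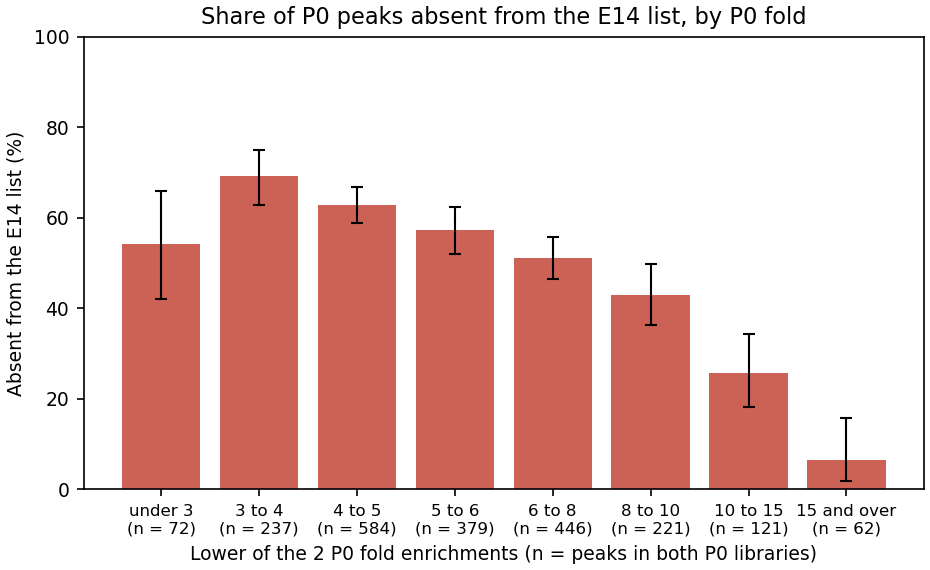
Share of reproducible P0 peaks absent from the E14 list (percent, vertical axis) in bands of the lower of the P0 fold enrichments (horizontal axis). Bars are shares and lines are 95% exact binomial intervals over peaks; the share goes from 69.2% at a fold of 3 to 4 down to 6.45% at 15 and over.

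The strongest regions were ranked by the lower of their P0 folds, an order that favours regions with similar folds in both libraries. The highest was on chromosome 6 at 86618984 to 86619563, where the P0 libraries gave folds of 32.4 and 33.2, with summits 10 bp apart. The nearest E14 peak lay 297288 bp away. The next was on chromosome 11 at 69714899 to 69715336, with folds of 21.9 and 23.8 and summits 7 bp apart, and an E14 peak 19502 bp away. Both stood above a fold of 15 in each library, in the band where most reproducible peaks also had an E14 peak.

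On chromosome 13, the region at 64263012 to 64263513 had folds of 16.0 and 16.3, and no E14 peak within 593589 bp. The region on chromosome 11 at 119803969 to 119804594 had folds of 14.8 and 17.1, with an E14 peak 143549 bp away. Over all 1145 regions the fold of P0 replicate 2 was a median of 1.14 times that of P0 replicate 1 (quartiles 0.961 and 1.42). Of the 6 strongest, the region on chromosome 18 at 20782448 to 20788134 had the ratio farthest from 1, at 1.59. Its P0 replicate 2 fold is that of a peak of 14939 bp whose summit lay 7032 bp away. This ratio therefore compares different positions.

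The other regions of the strongest 6 belonged to 1 broad domain on chromosome 18. In P0 replicate 1 this domain was split into 4 peaks between 20773401 and 20788134, with folds of 21.3, 23.1, 12.6 and 13.6 in order of position and widths of 5218, 1755, 1083 and 5687 bp. In P0 replicate 2 a single peak of 14939 bp covered it, from 20773277 to 20788215, with a fold of 21.7. The E14 list held 1 narrow peak inside the domain, at 20780558 to 20780845, with a fold of 4.54. That peak falls within the second P0 replicate 1 peak, so the second peak was a kept peak while the other 3 counted as absent from E14. With the P0 libraries exchanged in the rule, the single wide peak overlaps the E14 peak and the domain would count as kept. The Ikzf1 list held no peak within it. All 3 Ikzf4 lists therefore held a peak in the domain, and the E14 call covered 288 bp of it.

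**Figure D2:**
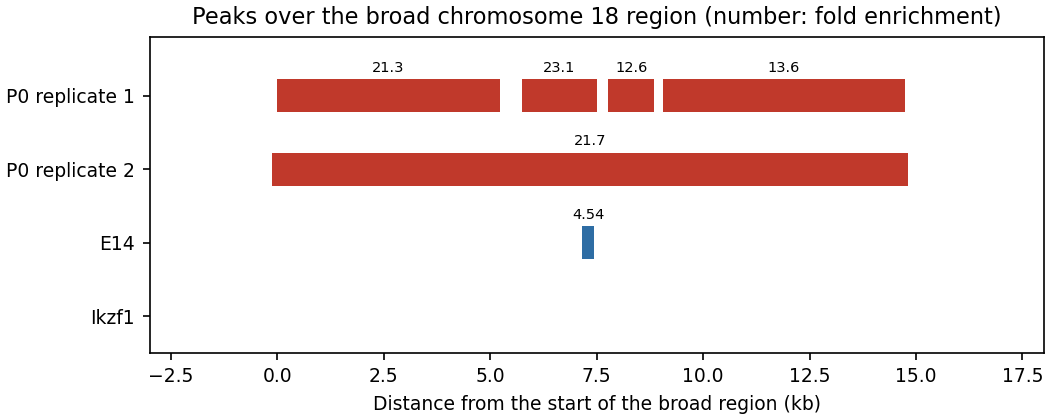
Peaks of each list over the broad chromosome 18 domain, with the distance from the start of the domain in kb on the horizontal axis and 1 row per library. Bars are called peaks drawn to scale and numbers are fold enrichments; P0 replicate 1 has 4 peaks, P0 replicate 2 a single one, E14 a single narrow one with a fold of 4.54 and Ikzf1 none.

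Across all 1145 regions the P0 libraries ranked the fold similarly, though less tightly than for the kept peaks. Spearman's rho between the fold enrichments of the P0 libraries was 0.592 and Pearson's r of the log2 folds 0.699. Over the 977 kept peaks the values were 0.746 and 0.846. Without the 39 regions that had a fold under 3 in at least 1 P0 library, the values for the regions were 0.559 and 0.613. These are correlations across regions that share libraries, depth and peak caller and that span different ranges of fold, and they carry no p-value. The fold was higher in P0 replicate 2 for 790 of the 1145 regions (69.0%), and 886 (77.4%) had folds within 1.5 times of each other. Summits lay a median of 53 bp apart, at most 50 bp for 552 regions (48.2%) and at most 200 bp for 1039 (90.7%). For kept peaks the median distance was 46 bp.

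**Figure D3:**
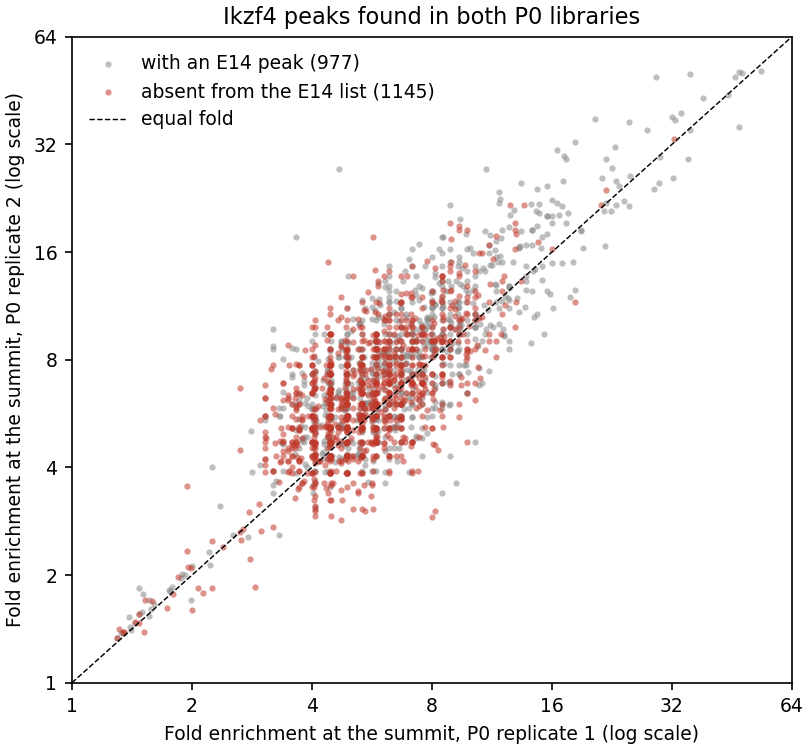
Fold enrichment at the summit in P0 replicate 1 (horizontal, log scale) against P0 replicate 2 (vertical, log scale) for every reproducible peak, in red the 1145 absent from the E14 list and in grey the 977 kept peaks. The red points fill the middle of the range around medians of 5.34 and 6.26, and few of them reach folds of 15 and over.

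A few regions differed strongly between the P0 libraries. On chromosome 3 at 6887100 to 6887485 the fold was 4.40 in P0 replicate 1 and 15.0 in P0 replicate 2. At chromosome 7, 103532739 to 103533015, it was 5.68 and 17.6, and at chromosome 17, 56176062 to 56176427, it was 5.08 and 13.7. In the opposite direction, chromosome 4 at 131978157 to 131978395 went from 8.01 in P0 replicate 1 to 2.91 in P0 replicate 2. Chromosome 7 at 132851208 to 132851402 went from 8.12 to 3.02 and chromosome 12 at 101425475 to 101425864 from 9.79 to 4.72. Each fold belongs to the summit in its own library, and the summits of these named regions lay 32 to 254 bp apart. Ratios over 2 were found for 52 regions toward P0 replicate 2 and for 3 toward P0 replicate 1, so a fold gap of that size can arise between libraries of the same stage.

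The regions were about as wide as the peaks of the whole list. Their median width was 284 bp in P0 replicate 1 (quartiles 227 and 372), against 291 bp for all peaks of that library, and 347 bp in P0 replicate 2 (259 and 467). Kept peaks were wider, with medians of 381 and 443 bp, and P0 replicate 1 peaks with no partner in P0 replicate 2 or at E14 were narrower, with a median of 226 bp. Only 11 regions (0.961%) were wider than 1 kb in P0 replicate 1, against 1.46% of all peaks of that list. They were the 3 in the chromosome 18 domain, 3 on chromosome 6 between 3082854 and 3091984, 2 on chromosome 4, 1 on chromosome 11 and 2 on unplaced pieces of the assembly. A q value under 0.05 in both P0 libraries was reached by 1063 of the regions (92.8%) and under 0.01 by 946 (82.6%). For kept peaks the shares were 97.4% and 92.8%. In the E14 list as a whole 79.5% of the peaks had a q value under 0.05, against 93.6% and 94.3% in the P0 lists.

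The authors' fold and p value of a peak together fix how many fragments were stacked at its summit (the pileup) and how many were expected there (the background). The peak caller MACS2 writes the fold as pileup plus 1 over background plus 1, and takes p from the Poisson distribution. Exactly 1 whole-number pileup gave the deposited p within 0.001 on the −log10 scale for 99.1% of the E14 peaks, 98.8% of the P0 replicate 1 peaks and 99.3% of the P0 replicate 2 peaks. Peaks without a solution had low folds, with medians of 1.22 to 1.58 in the 3 lists. For the regions this gave a median of 13 fragments in P0 replicate 1 (quartiles 10 and 17, 1133 regions) and of 16 in P0 replicate 2 (12 and 21, 1138 regions). The kept peaks had medians of 17 and 21 fragments. A single fragment more or less therefore moves the fold of a typical region visibly.

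At the kept peaks the local background was higher at E14 than at P0. Over the 952 kept peaks solved in all 3 libraries, the background was higher at E14 than in P0 replicate 1 at 903 (94.9%) and higher than in P0 replicate 2 at 889 (93.4%). The E14 background was a median of 2.38 times that of P0 replicate 1 at the same peak (quartiles 1.59 and 3.79). Between the P0 libraries the background kept a nearly fixed ratio, with a median of 1.07 and quartiles of 1.06 and 1.07. The ratio of E14 to P0 thus varied from peak to peak, while that between the P0 libraries hardly did. The control behind these backgrounds is not given in the sources used here, nor whether E14 and P0 were called against the same one. The source of the E14 difference was not tested, and it is not read as a trait of the stage. The lowest background found in a list was 1.42 fragments for E14 and 1.25 and 1.33 for the P0 libraries. Among kept peaks, 2.82% stood at that lowest level at E14. The same share was 37.4% for the first P0 library and 37.9% for the second.

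The pileup itself was as high at E14 as at P0 over the kept peaks. Its median was 22 fragments at E14, and the E14 pileup was at least that of P0 replicate 1 at 724 of 952 peaks (76.1%) and at least that of P0 replicate 2 at 528 (55.5%). The E14 fold was nevertheless below that of P0 replicate 1 at 767 (80.6%) and below that of P0 replicate 2 at 836 (87.8%). Kept peaks had to be called at E14, which favours high E14 pileups among them. E14 peaks found in neither P0 list had a lower background, with a median of 1.68 fragments over 1068 peaks, than kept peaks at E14, with a median of 4.45.

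**Figure D4:**
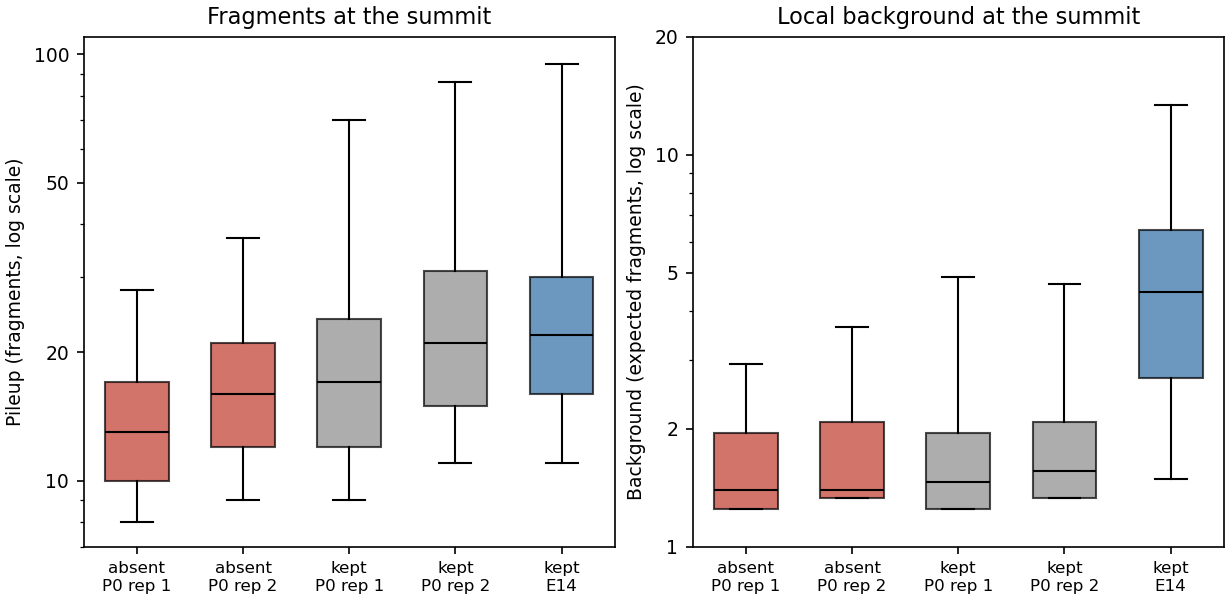
Fragments at the summit (left, log scale) and local background in expected fragments (right, log scale) for the regions absent from the E14 list in each P0 library, and for kept peaks in the P0 libraries and at E14. Boxes give quartiles and medians and whiskers the 5th and 95th percentiles over peaks; kept peaks have a median background of 4.45 at E14 and of 1.47 and 1.56 at P0.

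The local E14 background at a site sets how many fragments it needed there to enter the E14 list. The weakest p value in that list was 3.69 on the −log10 scale. At the lowest E14 background a pileup of 7 reaches that value. All 1132 regions solved in both P0 libraries had at least 7 fragments in each. The lowest solved pileup in either P0 list was also 7, so this count was fixed by the P0 peak calls. At the median E14 background of the kept peaks, 4.45, a pileup of 14 is needed. In that case 446 of the 1132 regions (39.4%) had enough fragments in both P0 libraries, and 686 had fewer in at least 1 of them. Of the 952 kept peaks solved in all 3 libraries, 603 (63.3%) had enough in both P0 libraries, though all were called at E14. At the upper quartile of that background, 6.43, the need is 17 fragments, and 249 regions (22.0%) and 452 of the kept peaks (47.5%) reached it. A P0 pileup below the need thus does not by itself mean absence from the E14 list. Read depths are not given, so P0 pileups were set against the E14 need without scaling. At a background of 1.68, the median of the E14 peaks found in neither P0 list, 8 fragments suffice and 1118 regions (98.8%) reached them. The E14 background at the regions themselves is not given by the lists, so its part in their absence from the E14 list was not tested.

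The regions were spread over all assembled chromosomes apart from Y. Their number ran from 18 on chromosome X to 86 on chromosome 2, with 12 on unplaced pieces. The share of reproducible peaks that were absent from the E14 list was highest on chromosome 2, at 86 of 138 (62.3%, interval 53.7 to 70.4%), and on chromosome 13, at 61.1% (51.3 to 70.3%). It was lowest on chromosome 7, at 66 of 148 (44.6%, 36.4 to 53.0%), and on chromosomes 18 (44.9%) and 19 (45.0%). The interval of chromosome 7 and that of chromosome 5 (45.2%, 37.0 to 53.6%) ended just below the overall 54.0%. All other chromosomes had intervals that held it.

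**Figure D5:**
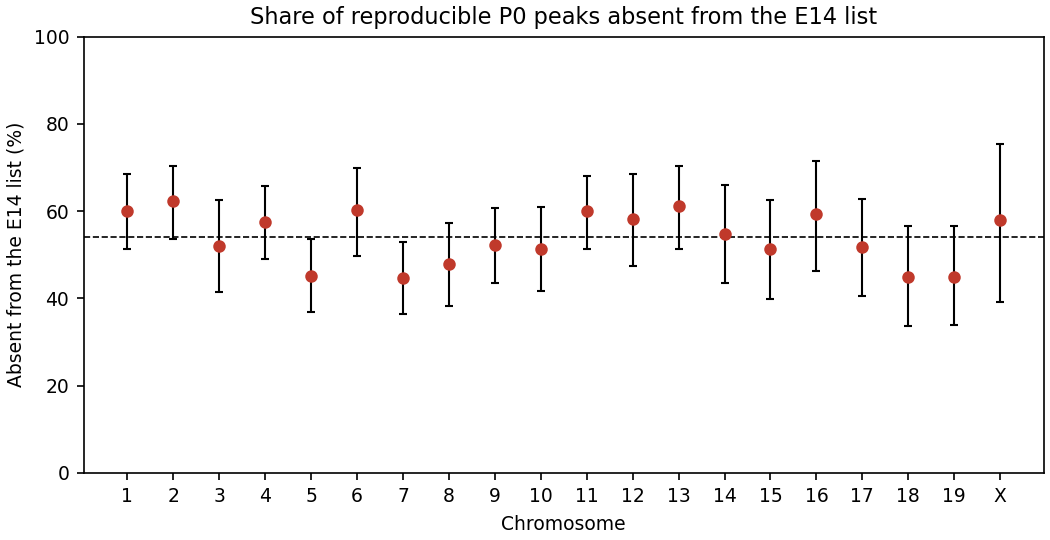
Share of reproducible P0 peaks absent from the E14 list (percent, vertical axis) by chromosome (horizontal axis), with 95% exact binomial intervals over peaks and the overall share of 54.0% as a dashed line. The intervals of chromosomes 5 and 7 end just below the line and those of the other chromosomes cross it.

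Distances to the nearest E14 peak were long, and were not longer than for P0 replicate 1 peaks without a partner. Among the 1143 regions on a chromosome or contig with an E14 peak, the nearest one was a median of 195 kb away (quartiles 62.5 and 557 kb). An E14 peak stood within 10 kb of 104 regions (9.10%), within 1 kb of 42 (3.67%) and within 100 bp of 14 (1.22%). For P0 replicate 1 peaks with no partner in P0 replicate 2 or at E14, the median distance was 244 kb, with 8.05% within 10 kb and 2.81% within 1 kb. Of the 42 regions within 1 kb, 18 sat beside an E14 peak that overlapped another P0 replicate 1 peak.

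The limit of the rule was narrow at a few places. Just inside it, a region on chromosome X at 11583966 to 11584159 was separated by 1 bp from an E14 peak with a fold of 3.88, and its own folds were 4.90 and 3.86 at P0. On chromosome 10 at 122299566 to 122299800 the gap was 3 bp, and on chromosome 11 at 120685907 to 120686149 it was 9 bp. At each of these places the P0 replicate 2 peak did overlap the E14 peak. With the P0 libraries exchanged in the rule, these sites would count as kept. Just outside it, a kept peak on chromosome 19 at 54018823 to 54019441 shared 3 bp with an E14 peak with a fold of 3.67, and had folds of 7.70 and 7.04 at P0. Kept peaks on chromosome 5 at 124777845 to 124778119 and on chromosome 6 at 82724434 to 82724661 shared 7 and 20 bp with theirs.

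Few regions lay close to each other, as was also the case for kept peaks. A distance of at most 10 kb to another region was found for 96 of the 1145 (8.38%, interval 6.84 to 10.1%), in 42 runs, of which 35 held 2 regions. Of the 977 kept peaks, 81 (8.29%, 6.64 to 10.2%) had another kept peak within 10 kb. The longest run had 6 regions on chromosome X between 166429161 and 166445385. Their folds ran from 1.99 to 3.68 in P0 replicate 1 and from 1.78 to 3.48 in P0 replicate 2, over backgrounds of 13.1 to 33.7 fragments in P0 replicate 1. The span also held 2 E14 peaks and 14 Ikzf1 peaks. A run of 5 regions lay at the start of the assembled chromosome 9, between 3001786 and 3023708, a part of the mouse genome known for satellite repeats, with folds of 1.31 to 1.52 in P0 replicate 1. This span held 10 E14 peaks, none of which touched the 5 regions.

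Runs at ordinary folds were shorter. On chromosome 12, 3 regions between 55811374 and 55819939 had folds of 5.34 to 10.2 in P0 replicate 1 and of 6.17 to 9.42 in P0 replicate 2, and a pair at 55834973 to 55839543 had folds of 7.79 and 8.01 in P0 replicate 1. On chromosome 13, 3 regions between 23654240 and 23666566 had folds of 4.90 to 5.68 in P0 replicate 1. Neither span held an E14 or Ikzf1 peak. A run of 3 on chromosome 4, between 154326848 and 154338613, had folds of 4.90 to 5.59 in P0 replicate 1 and held 1 E14 peak. Another run of 3, on chromosome 6 between 3082854 and 3091984, held no E14 or Ikzf1 peak. These runs were chosen for naming after their values were seen.

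Some of the highest scores belonged to sites with little enrichment. The score of a peak follows its q value, and the highest among the regions was 2311, on chromosome 2 at 98502417 to 98502892, where the fold was 1.47 in both P0 libraries. An E14 peak lay 3945 bp away. Of the 6 regions with the highest score, 4 were at the start of chromosome 9, with scores of 1008 to 1577 and folds of 1.34 to 1.52 in P0 replicate 1. The remaining one was the chromosome 6 region with a fold of 32.4, at a score of 1008. In all, 39 regions (3.41%) had a fold under 3 in at least 1 P0 library, against 3.39% of all reproducible peaks. Where it could be solved, their background in P0 replicate 1 had a median of 26.1 fragments (32 regions), against 1.36 for the other regions (1101 solved).

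The last comparison set the regions beside the Ikzf1 list, which the choice of regions did not use. An overlap of at least 1 bp with 1 of the 1787 Ikzf1 peaks was found for 28 of the 1145 regions (2.45%, interval 1.63 to 3.52%). This is the share of the P0 replicate 1 list as a whole, 2.52% (1.97 to 3.18%). Kept peaks had 18 of 977 (1.84%, 1.10 to 2.90%), and P0 replicate 1 peaks without a partner in P0 replicate 2 or at E14 had 22 of 535 (4.11%, 2.59 to 6.16%). The Ikzf1 library has no replicate and came from plasmid-driven Ikzf1, and the intervals cover counting error only.

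Peaks of low fold held a large part of this overlap, among the regions and among kept peaks. Of the 39 regions with a fold under 3 in at least 1 P0 library, 11 (28.2%, interval 15.0 to 44.9%) were in the Ikzf1 list, 4 of them in the chromosome X run. Kept peaks with such a low fold also had a larger share than the other kept peaks, 6 of 33 (18.2%, 6.98 to 35.5%). Of the 1106 other regions it was 17 (1.54%, 0.898 to 2.45%), and of the kept peaks with folds of at least 3 it was 12 of 944 (1.27%, 0.659 to 2.21%).

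Of the shared regions, the one with the highest lower fold was on chromosome 16 at 29882904 to 29883824, with folds of 9.35 in P0 replicate 1 and 13.7 in P0 replicate 2 and no E14 peak within 148039 bp. On chromosome 2, the region at 163028682 to 163028917 had folds of 8.90 and 9.02 and an E14 peak 6961 bp away. On chromosome 5 at 150330625 to 150331177 the folds were 8.11 and 10.2. Chromosome 13 held shared regions at 100214458 to 100215010, with folds of 7.70 and 9.38, and at 3711848 to 3712030, with folds of 6.68 and 10.3. All 5 had higher folds in P0 replicate 2, and all had summits at most 29 bp apart between the P0 libraries.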

How the data were processed

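Per the submitters' processing notes, reads were aligned with Bowtie2 and peaks called with MACS2, on mm9 judged by the contig names. Options and the control library are not given in the sources used here. Each deposited Ikzf4 list gives per peak a score, the authors' fold enrichment (a ratio) and −log10 p and −log10 q values, 1 list per library. The deposited Ikzf1 list holds positions and a score of 0 throughout, so its peaks were not ranked. The 3 Ikzf4 lists reach down to a −log10 q of 0.305 to 0.308, so they include weak calls. Read depths were not given in the files used.

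Overlaps of at least 1 bp were computed in Python 3.11.15 (pandas 2.3.3) and gave the same 1145 regions with bedtools 2.31.1. The P0 replicate 2 partner of a region was the peak with the largest overlap. Pileups and backgrounds were solved with scipy 1.17.1 as described above, searching up to 4000 fragments. The solver was tested on simulated data. Intervals are 95% exact binomial (Clopper-Pearson) over peaks, which are not independent.

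No test was made: the regions were chosen by the peak calls and E14 and Ikzf1 have 1 library each. The regions and the rules below were chosen with earlier results of these data known. Regions named were the 6 of highest lower fold, the 6 of highest score, the 5 highest in the Ikzf1 list, 3 just inside and 3 just outside the rule, the longest run, and 3 of largest fold ratio each way. The solved pileups were added after the files were seen. The planned gene context and RNA comparison were not made, since no mm9 annotation was used here.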

Additional observations from a re-analysis of the deposited data

How the results depend on the processing

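The number of regions stayed within 1.5 times of 1145 under every setting that kept both P0 libraries, from 807 when each list was reduced to its 2472 peaks of highest score to 1245 with folds of at least 3 in each list, a setting chosen after seeing the data. Leaving out a P0 library gave 1680 (without P0 replicate 2) to 2790 (without P0 replicate 1). The share of reproducible peaks absent from the E14 list was 48.9% with equal list lengths, 56.8% with summits at most 200 bp apart, 57.7% with q under 0.05, 61.1% with q under 0.01 and 60.7% with folds of at least 3; the cause was not tested. With E14 peaks within 1 kb counted as present it was 52.0%, and with the P0 libraries exchanged 53.4%. The overlap with Ikzf1 was 15 regions with summits (for Ikzf1 the peak middle) at most 200 bp apart and 50 without either P0 library in turn. As a share it was 1.36% and 1.53% with the summit and fold settings. The counts of 50 came from longer lists, with shares of 2.98% without P0 replicate 2 and 1.79% without P0 replicate 1. The share as reported was 2.45%. Of 73 values of the other results, these Ikzf1 shares included, 62 moved by less than the spread between the P0 libraries or their interval. The share within 10 kb of an E14 peak ran from 5.63% to 13.7%. It moved beyond its interval under 5 settings and stayed within it under 6. No paired analysis was possible because the results come from no test, and E14 has a single library. Pileups of 10 to 21 fragments limit the precision of the folds.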
